A study of Mus musculus with 8 samples.

Results

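The 31 islet endothelial genes described here mark the cells that line islet blood vessels, and the rule that names them uses gene symbols and no measured value, although it was set with earlier results of these data known. They were read from 31 of the 26894 genes with a symbol on the array, 1 probe a gene, taking for each gene the probe with the highest mean over the 8 arrays. The list held 10 junction and surface proteins, 7 receptors, 5 secreted proteins, 2 Notch pathway genes, 4 transcription factors and 3 cytoplasmic proteins.

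Islets are threaded by a dense capillary network whose endothelial cells carry diaphragm-bridged pores, and β-cells keep these capillaries open by secreting VEGF-A. VEGF-A acts through the receptor encoded by Kdr, whereas the receptor encoded by Flt1 binds the same ligand tightly and limits how much of it reaches Kdr. Angiopoietins acting on the receptor encoded by Tek, Notch signalling between neighbouring cells, and transcription factors of the ETS and SOX families keep the endothelial identity of these cells.

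Gene expression was measured on 8 one-colour arrays, 4 of islets from βUCP2Tg mice and 4 of islets from their wild-type (WT) littermates. βUCP2Tg mice carried a mouse Ucp2 cDNA under a rat insulin promoter and had been backcrossed to C57BL6/J, so the transgene is driven in β-cells, which are not the cells described here. The mice were males, of 8 to 12 weeks by the methods for islet studies. The islets of both groups were kept in 200 mg/dL glucose for 8 h before RNA was taken. The methods for islet studies also give an overnight culture after isolation. Neither the number of mice behind a sample nor separate cultures are stated, so p-values measure the spread between these samples, which may be technical. All arrays lay on 1 slide, with the WT samples in one row and the βUCP2Tg samples in the other, so genotype and slide row cannot be told apart. Ucp2 itself was at least 6.99 in every βUCP2Tg sample and at most 1.46 in every WT sample, on a log2 scale relative to each array's 75th percentile, which is the scale of every signal below. Whole islets were measured, so fewer endothelial cells and less RNA per endothelial cell cannot be told apart.

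Endothelial RNA was present in all samples. Of the 31 genes, 30 exceeded background clearly on 4 or more of the 8 arrays and were tested, and 29 did so on all 8. Clec14a, a lectin of the endothelial surface, reached that level on 3 βUCP2Tg arrays and 1 WT array. Aplnr, the apelin receptor, was well above background on 1 βUCP2Tg array and on 0 WT arrays and was not tested.

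No endothelial gene passed the test for a difference between βUCP2Tg and WT islets. A gene was called when its limma p, adjusted by Benjamini-Hochberg over all 35363 probes tested, was under 0.05 and its fold change was over 1.5. By that rule 0 of the 30 genes were higher and 0 were lower in βUCP2Tg islets, where 0.206% of all probes were called higher and 0.204% lower. The smallest adjusted p among the 30 genes was 0.102 in limma. A Student's t-test, which the paper states for comparisons of 2 groups, also left 0 after Benjamini-Hochberg adjustment. The paper's own array data were analysed in GeneSpring. At an unadjusted limma p under 0.05, 9 genes (30%) were higher, against 9.99% of all probes, and 2 genes (6.67%) were lower, against 15.2% of all probes. At an unadjusted p under 0.05, the Student's t-test put 7 genes (23.3%) higher, against 8.98% of all probes, and 2 (6.67%) lower, against 13.7%.

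The 9 genes with higher values were Cldn5, Emcn, Eng, Esm1, Kdr, Mmrn2, Robo4, Sox18 and Tek, and the 2 with lower values were Flt1 and Egfl7. In 5 genes (16.7%), Eng, Robo4, Sox18, Esm1 and Tek, every βUCP2Tg array lay above every WT array, which held for 5.25% of all probes. Only Nos3 (3.33%) had every βUCP2Tg array below every WT array, against 7.17% of all probes. The difference was above 0 in 20 of the 30 genes (66.7%) and in 46.8% of all probes. The median log2 fold change was 0.14 over the 30 genes and -0.02 over all probes.

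**Figure D1:**
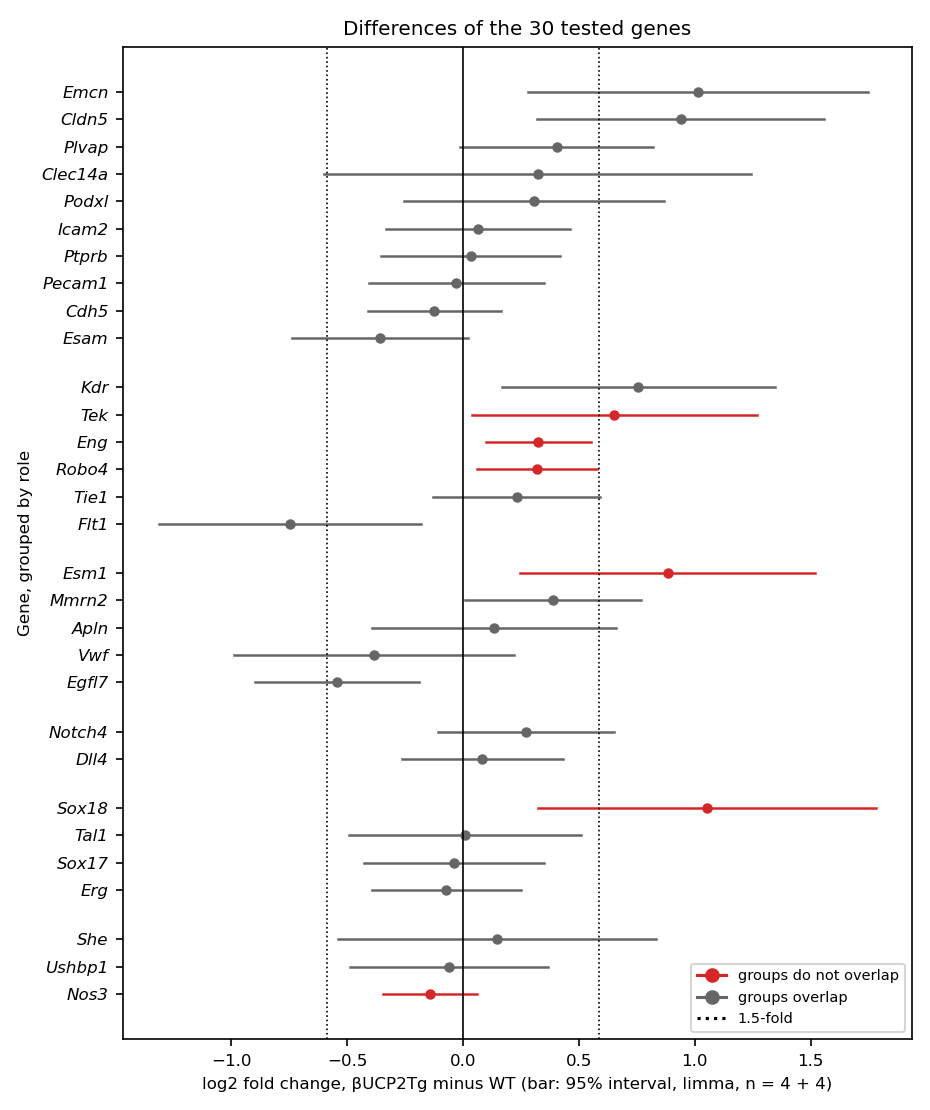
Log2 fold change of βUCP2Tg over WT islets (horizontal axis) for the 30 tested endothelial genes, grouped by role from junction and surface proteins at the top to cytoplasmic proteins at the bottom. Points are limma estimates from 4 arrays a group, bars are 95% intervals, dotted lines mark 1.5-fold, and red marks the 6 genes whose groups do not overlap. The estimates run from -0.75 (Flt1) to 1.05 (Sox18).

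The receptors held the most genes at an unadjusted limma p under 0.05, 5 of the 6 tested. At that p, 9.99% of all probes were higher and 15.2% lower. The estimates of the VEGF receptors had opposite signs. Kdr, the main signalling receptor for VEGF-A, measured 2.43, 2.07, 2.40 and 1.99 in βUCP2Tg replicates 1 to 4 and 2.14, 0.86, 1.30 and 1.57 in WT replicates 1 to 4. WT replicate 1 lay among the βUCP2Tg arrays, above replicates 2 and 4, and the other WT arrays were lower than all of them. Kdr thus differed by a log2 fold change of 0.76 (SE 0.26, limma adjusted p = 0.131).

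Flt1, the second VEGF-A receptor, measured 2.73, 2.63, 2.79 and 3.47 in βUCP2Tg islets and 3.05, 3.92, 3.79 and 3.85 in WT islets. Here βUCP2Tg replicate 4 and WT replicate 1 lay between the other 3 arrays of each group, and the other WT arrays were higher than all βUCP2Tg arrays. Flt1 thus differed by -0.75 on the log2 scale (SE 0.25, limma adjusted p = 0.125). Its other 2 tested probes gave -1.07 and -0.72, with limma adjusted p of 0.0873 and 0.112, so the 3 tested probes had the same sign. On the probe with -1.07, every βUCP2Tg array lay below every WT array.

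Tek, the angiopoietin receptor Tie2, measured -3.13, -3.32, -3.36 and -3.42 in βUCP2Tg islets and -3.65, -4.82, -3.87 and -3.50 in WT islets. The groups did not overlap, but WT replicate 2 lay far below the other WT arrays. This gave a log2 fold change of 0.65 (SE 0.27, limma adjusted p = 0.179), and of 0.14 under normexp background correction of the scanner signal. Without WT replicate 2 it was 0.37 (limma adjusted p = 0.22), the lowest value when single arrays were left out, and the highest was 0.81. Tie1, the co-receptor of Tek, differed by 0.23 with overlapping groups (limma adjusted p = 0.383), and by 0.12 without WT replicate 2, 0.38 without WT replicate 4 and 0.07 under normexp.

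Eng, the endothelial co-receptor for ligands of the TGF-β family, measured 0.38, 0.21, 0.19 and 0.29 in βUCP2Tg islets and -0.07, -0.23, -0.01 and 0.07 in WT islets. Robo4, a guidance receptor that stabilises vessels, measured 2.80, 2.95, 2.83 and 2.90 in βUCP2Tg islets and 2.28, 2.73, 2.63 and 2.56 in WT islets. In both receptors every βUCP2Tg array was above every WT array, with log2 fold changes of 0.32 for Eng (SE 0.10) and 0.32 for Robo4 (SE 0.11). Their limma adjusted p-values were 0.112 and 0.139. A second tested probe of Eng was far dimmer, with mean signals of -4.87 in βUCP2Tg and -4.59 in WT islets. It gave -0.29 (SE 0.26, limma adjusted p = 0.513) with overlapping groups. The higher values of Eng were thus not seen on this probe, which showed no clear direction either way.

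The promoters of Kdr and Flt1, whose estimates had opposite signs, and of Emcn, described next, are shown to set their sequence beside their values. They run from 250 bases before to 50 bases after the transcription start, and come from RefSeq on build GRCm38.p6, 5′ to 3′ on the gene's strand. Capitals mark GGAAG, a form of the core of ETS sites, with its reverse complement CTTCC, and ACAAT, a form of the core of SOX sites, with its reverse complement ATTGT. They also mark ACGTG and GCGTG, the forms of the hypoxia response element core, with their reverse complements CACGT and CACGC.
Kdr, chr5:75978406-75978705, - strand: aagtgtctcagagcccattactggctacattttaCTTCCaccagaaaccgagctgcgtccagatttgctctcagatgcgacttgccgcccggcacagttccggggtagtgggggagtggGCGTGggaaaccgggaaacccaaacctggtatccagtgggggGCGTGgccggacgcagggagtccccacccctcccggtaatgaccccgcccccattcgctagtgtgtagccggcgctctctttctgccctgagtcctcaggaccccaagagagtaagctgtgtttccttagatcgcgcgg
Flt1, chr5:147725962-147726261, - strand: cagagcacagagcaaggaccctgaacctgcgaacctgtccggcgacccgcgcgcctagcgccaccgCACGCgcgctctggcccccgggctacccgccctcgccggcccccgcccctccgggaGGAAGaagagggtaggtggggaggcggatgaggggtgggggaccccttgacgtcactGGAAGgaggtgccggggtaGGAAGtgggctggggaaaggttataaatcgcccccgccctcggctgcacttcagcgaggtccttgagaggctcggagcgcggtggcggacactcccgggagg
Emcn, chr3:137340828-137341127, + strand: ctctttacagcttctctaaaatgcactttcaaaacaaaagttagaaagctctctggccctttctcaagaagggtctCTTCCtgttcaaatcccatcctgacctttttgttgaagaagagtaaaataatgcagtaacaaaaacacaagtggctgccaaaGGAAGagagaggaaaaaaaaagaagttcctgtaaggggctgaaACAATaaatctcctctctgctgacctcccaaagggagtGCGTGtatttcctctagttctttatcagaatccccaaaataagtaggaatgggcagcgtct
Kdr held 1 ETS core and 2 hypoxia cores, Flt1 held 3 ETS cores and 1 hypoxia core, and Emcn held 2 ETS cores, 1 SOX core and 1 hypoxia core. No match of one motif overlapped a match of another in these windows. Of the 31 genes 18 were in the promoter table, with 23 promoters. An ETS core was in 73.9% of those promoters and in 71.4% of all 32851, a SOX core in 30.4% and 31.02%, and the hypoxia core in 43.5% and 43.8%. A match is a description of these letters only.

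Among the junction and surface proteins, 2 of 10 passed an unadjusted limma p of 0.05, both higher, against 9.99% of all probes. None of the 10 had groups that did not overlap, against 5.25% of all probes higher and 7.17% lower. Emcn, a sialomucin that coats capillary and venous endothelium, measured 2.19, 2.06, 2.11 and 1.45 in βUCP2Tg islets and 1.71, 0.21, 0.66 and 1.17 in WT islets. The overlap came from βUCP2Tg replicate 4, the lowest of its group, and WT replicate 1, the highest of its own. Emcn had a log2 fold change of 1.01 (SE 0.32, limma adjusted p = 0.117).

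Cldn5, the claudin of endothelial tight junctions, measured -0.48, -0.17, -0.43 and -1.33 in βUCP2Tg islets and -1.88, -1.34, -1.15 and -1.79 in WT islets. Here βUCP2Tg replicate 4 lay inside the WT range and WT replicate 1 was the lowest array. Its log2 fold change was 0.94 (SE 0.27, limma adjusted p = 0.104).

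The adhesion proteins common to endothelial cells gave smaller differences. Cdh5, the VE-cadherin of adherens junctions, ranged from 1.28 to 1.61 in βUCP2Tg islets and from 1.30 to 1.71 in WT islets, and its log2 fold change was -0.12 with a 95% interval of -0.41 to 0.16. When single arrays were left out, Cdh5 ran from -0.21 (without WT replicate 1) to -0.07 (without WT replicate 3 or βUCP2Tg replicate 1), and was -0.19 without βUCP2Tg replicate 4. Pecam1, an adhesion protein of the same cell borders, gave -0.03 (95% interval -0.41 to 0.35). Icam2, a surface ligand for leukocyte integrins, gave 0.06 (-0.33 to 0.46), and Ptprb, the phosphatase VE-PTP that acts on Tek and Cdh5, gave 0.03 (-0.35 to 0.42).

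The 95% intervals of these 4 genes lay within 1.5-fold (0.58 on the log2 scale) in both directions, which held for 12 of the 30 genes in all. Plvap, which forms the diaphragms of fenestrated capillaries, gave 0.40 (95% interval -0.01 to 0.82, limma adjusted p = 0.208). Esam, a junctional adhesion protein, gave -0.36 (95% interval -0.74 to 0.02, limma adjusted p = 0.218). Without single arrays Plvap gave as little as 0.27 (WT replicate 2 left out) and Esam -0.23 (βUCP2Tg replicate 1 left out). Podxl, a sialomucin of the luminal surface, gave 0.31, and Clec14a gave 0.32, both with intervals that span 0. When single arrays were left out, Podxl ranged from 0.15 (without WT replicate 2) to 0.45 (without WT replicate 3), and was 0.20 without βUCP2Tg replicate 4 and 0.18 without WT replicate 1. Clec14a ranged from 0.13 (without WT replicate 2) to 0.62 (without βUCP2Tg replicate 2) and was 0.21 without WT replicate 3, and under normexp it was -0.13 and Podxl 0.06.

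Among the secreted proteins, the estimates of Esm1 and Egfl7 had opposite signs. Esm1, the proteoglycan endocan that marks sprouting tip cells, measured 4.21, 4.20, 4.11 and 3.75 in βUCP2Tg islets and 3.70, 2.45, 2.97 and 3.63 in WT islets. The groups did not overlap, although βUCP2Tg replicate 4 and WT replicates 1 and 4 lay close together. Esm1 had a log2 fold change of 0.88 (SE 0.28, limma adjusted p = 0.116).

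Egfl7, a matrix-bound protein secreted by endothelial cells, measured 4.22, 4.08, 4.08 and 4.42 in βUCP2Tg islets and 4.34, 4.81, 4.87 and 4.95 in WT islets. As in Flt1, βUCP2Tg replicate 4 and WT replicate 1 lay between the other 3 arrays of each group. The log2 fold change of Egfl7 was -0.54 (SE 0.15, limma adjusted p = 0.102), the smallest adjusted p of the 30 genes.

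Mmrn2, a matrix protein that binds Clec14a, gave 0.39 (SE 0.17, limma adjusted p = 0.191), with 3 βUCP2Tg arrays above every WT array, and 0.25 without WT replicate 2. Vwf, the clotting protein stored in endothelial granules, gave -0.38 and Apln, the ligand of Aplnr, gave 0.13, both with overlapping groups and 95% intervals of -0.99 to 0.22 and -0.39 to 0.66. Vwf was -0.19 without βUCP2Tg replicate 4, -0.20 without WT replicate 1 and -0.0064 without both. Its other tested probe, well above background on 3 βUCP2Tg arrays and 1 WT array, gave -0.13 (SE 0.45).

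**Figure D2:**
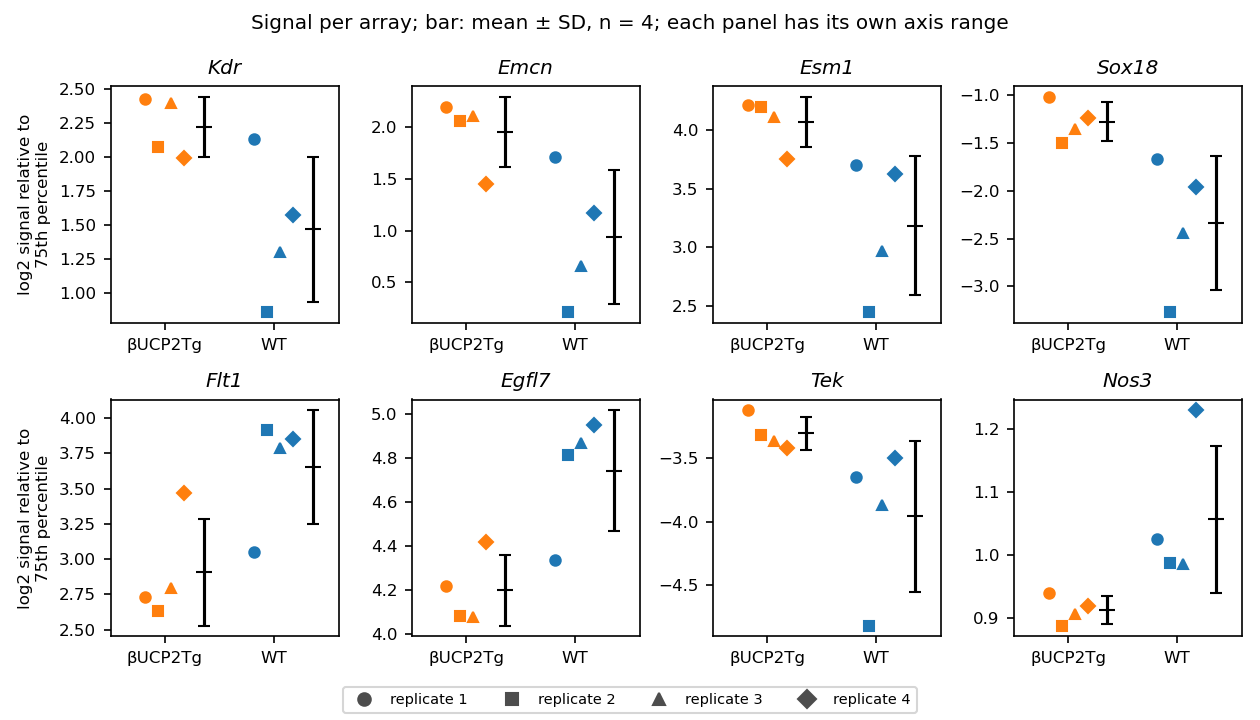
Log2 signal relative to each array's 75th percentile (vertical axis, its own range in each panel) for 8 endothelial genes in βUCP2Tg and WT islets. Each symbol is 1 array, shaped by replicate number, and the bar is the mean ± SD of 4 arrays. In Emcn, Flt1 and Egfl7 the overlap comes from βUCP2Tg replicate 4 and WT replicate 1, in Kdr WT replicate 1 lies above βUCP2Tg replicates 2 and 4, and in Kdr, Emcn, Esm1, Sox18 and Tek the lowest array is WT replicate 2.

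Of the 4 transcription factors, Sox18 alone had an unadjusted limma p under 0.05. Sox18, a SOX factor of vessel and lymphatic development, measured -1.02, -1.50, -1.35 and -1.24 in βUCP2Tg islets and -1.67, -3.27, -2.44 and -1.96 in WT islets. All βUCP2Tg arrays were above all WT arrays, and the WT arrays covered 1.60 on the log2 scale against 0.48 in βUCP2Tg islets. The log2 fold change of 1.05 (SE 0.32) was the largest of the 30 genes, with a limma adjusted p of 0.111.

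Sox17, the close relative of Sox18, gave -0.04 (95% interval -0.43 to 0.35), and its other 2 tested probes gave 0.17 and 0.04. Erg, an ETS factor of endothelial cells, gave -0.07 (-0.39 to 0.25), and Tal1, a factor of blood and endothelial precursors, gave 0.01 (-0.49 to 0.51). For all 3, the direction changed sign when single arrays were left out.

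In the Notch pathway, the ligand Dll4 gave 0.08 (95% interval -0.26 to 0.43) and the endothelial receptor Notch4 gave 0.27 (-0.11 to 0.65). Notch4 was 0.11 without WT replicate 2. Its other tested probe, well above background on 3 βUCP2Tg and 2 WT arrays, gave 0.56 (SE 0.33, limma adjusted p = 0.319). Neither of the 2 genes passed an unadjusted p of 0.05. Of 12 other tested Notch pathway genes, 7 were above 0 with a median of 0.05, and 0 were called. At an unadjusted limma p under 0.05, 2 were higher and 2 lower, against 9.99% and 15.2% of all probes. The 2 higher were Heyl, a transcriptional repressor induced by Notch, at 1.502 (limma adjusted p = 0.121), and the ligand Jag1 at 0.36 (0.129), both named for their p. Notch1, a receptor shared by many cell types, gave -0.81 (limma adjusted p = 0.0767), Rbpj, the DNA-binding partner of Notch, gave -0.41 (0.16), and Notch3 gave -0.11 (0.473).

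Among the cytoplasmic proteins, Nos3, the endothelial nitric oxide synthase, measured 0.94, 0.89, 0.91 and 0.92 in βUCP2Tg islets and 1.03, 0.99, 0.99 and 1.23 in WT islets. Every βUCP2Tg array was below every WT array, by a small step. The log2 fold change of Nos3 was -0.14 (95% interval -0.35 to 0.06, limma adjusted p = 0.339), and WT replicate 4, without which it was -0.09, stood above the rest. The exact permutation p of Nos3 was 0.0286, the smallest that 4 against 4 arrays can give. She, an SH2-domain adaptor, gave 0.15 (-0.54 to 0.83) and Ushbp1 gave -0.06 (-0.49 to 0.37).

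For most of the genes the WT arrays were spread more widely than the βUCP2Tg arrays, as they were over all probes. The range over the 4 WT arrays was larger than the range over the 4 βUCP2Tg arrays in 23 of the 30 genes (76.7%, against 70.6% of all probes). It also exceeded the difference between the groups in 28 genes (93.3%, against 87.2% of all probes). WT replicate 2 was the lowest of the 8 arrays for 17 of the 30 genes (56.7%), where it was the lowest for 20.1% of all probes. WT replicate 4 was the highest for 10 genes (33.3%, against 14.4% of all probes) and βUCP2Tg replicate 1 for 9 (30%, against 13.1%).

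The mean deviation of the 30 genes from their own 8-array means was 0.19, -0.04, 0.10 and 0.14 in βUCP2Tg replicates 1 to 4. It was -0.04, -0.40, -0.09 and 0.15 in WT replicates 1 to 4. WT replicate 2 thus stood lowest and WT replicate 4 lay among the βUCP2Tg arrays, so the groups overlapped. Without WT replicate 2 the median log2 fold change of the 30 genes was 0.01 in place of 0.14, and without WT replicate 4 it was 0.33.

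**Figure D3:**
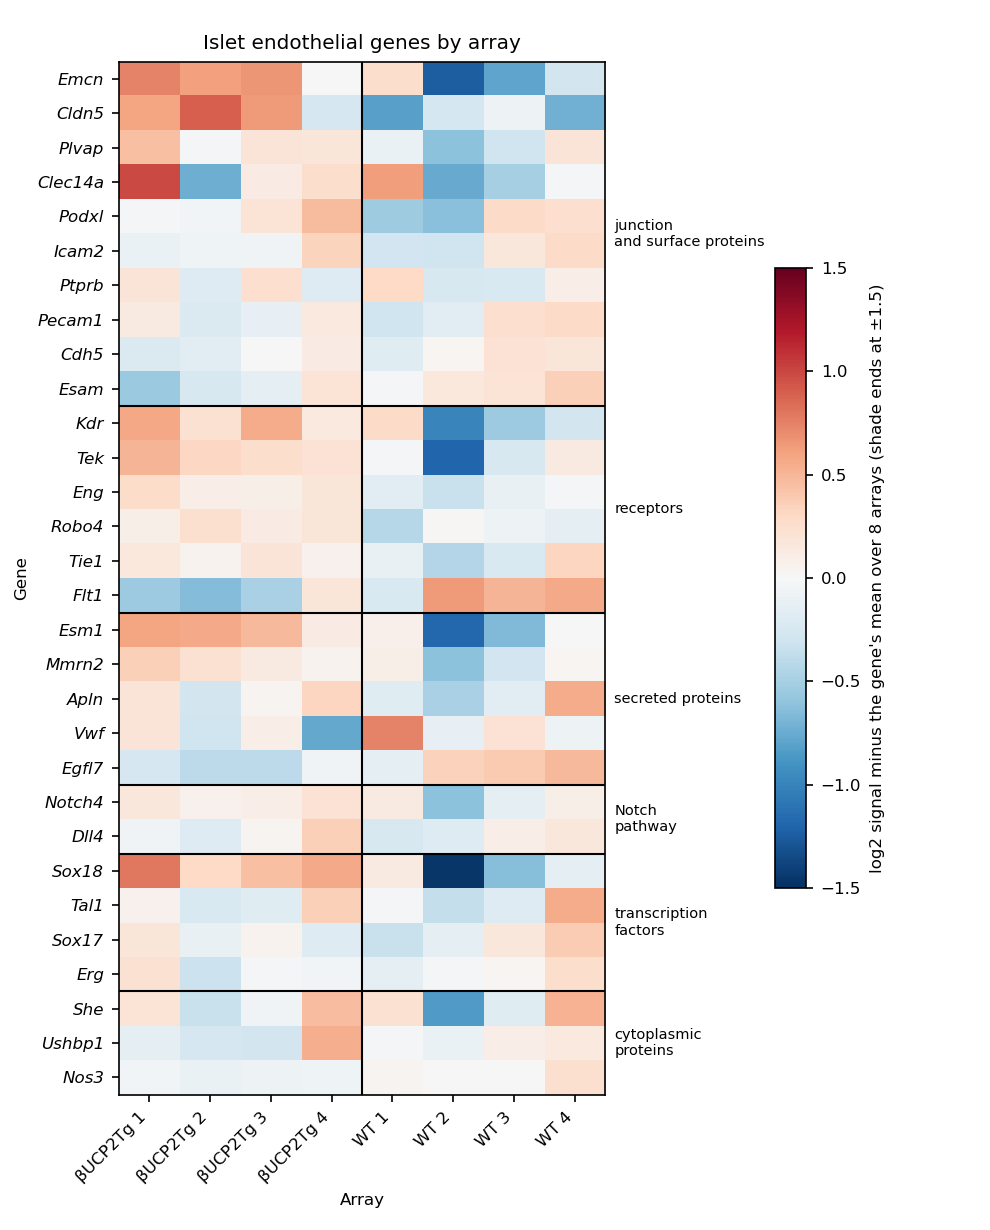
Log2 signal of the 30 tested endothelial genes (rows, by role) on the 8 arrays (columns) as the deviation from each gene's mean over all arrays, red above and blue below, with lines between roles and between the groups. WT replicate 2 is the bluest column and is lowest of the 8 for 17 genes, whereas Flt1 and Egfl7 run the other way.

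The calls depended on 2 arrays. Without WT replicate 1, limma called 4 genes higher, Emcn (1.27), Kdr (0.98), Esm1 (1.05) and Sox18 (1.28). It also called 2 genes lower, Flt1 (-0.95) and Egfl7 (-0.68), with adjusted p-values from 0.017 to 0.0398 over these 6 genes. Without that array, 5.14% of all probes were called higher and 5.67% lower, so many other probes passed too. Without βUCP2Tg replicate 4, Cldn5 was the only one of the 30 genes called (1.18, limma adjusted p = 0.032), where 0.994% of all probes were called higher and 3.19% lower. Of the genes named from the other lists, Vegfd (1.34), Heyl (1.94), Anpep (0.71), Cspg4 (0.74), Notch1 (-0.80), Acta2 (-0.64), Bnip3 (-1.82) and Ddit4 (-1.23) were called without WT replicate 1. Without βUCP2Tg replicate 4, those called were Cd93 (0.92), Notch1 (-0.98), Bnip3 (-1.97) and Ddit4 (-1.18).

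Leaving out both arrays, a choice made after the data had been seen, put 5 genes higher (Cldn5, Emcn, Kdr, Esm1 and Sox18) and 2 lower (Flt1 and Egfl7). Of all probes, 6.73% were then called higher and 9.25% lower. Without both arrays, 9 genes had every βUCP2Tg array above every WT array and 6 had every one below, against 21.5% and 23.6% of all probes. Slit3 (-0.86), Cxcl12 (-1.11), Edn1 (-1.01) and Rbpj (-0.60), not called when either array alone was left out, were then called too. Those arrays were chosen for where they lay, so these calls are a description. Over all 8 arrays, βUCP2Tg replicate 4 was the array of its group nearest to the WT mean, and WT replicate 1 nearest to the βUCP2Tg mean, in 7 of the 30 genes (23.3%) and in 22.6% of all probes.

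Genes of the hypoxia response also set these 2 arrays apart from the others of their groups. The mean deviation of 17 such genes was -0.97, -1.02 and -1.01 in βUCP2Tg replicates 1 to 3 and 0.38 in replicate 4, and 0.94, 0.93 and 0.92 in WT replicates 2 to 4 and -0.18 in WT replicate 1. Their median log2 fold change was -1.23. At an unadjusted limma p under 0.05, 14 of the 17 were lower, against 15.2% of all probes, and 0 were called. Of the 3 named by the rule on mean signal, Bnip3, a mitochondrial protein induced by low oxygen, gave -1.54 (limma adjusted p = 0.108), Ddit4, an mTOR inhibitor, gave -1.04 (0.0823) and Ndrg1 gave 0.01 (0.964). Whether the hypoxia response has a part in the values of Kdr, Emcn, Flt1 and Egfl7 was not tested.

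**Figure D4:**
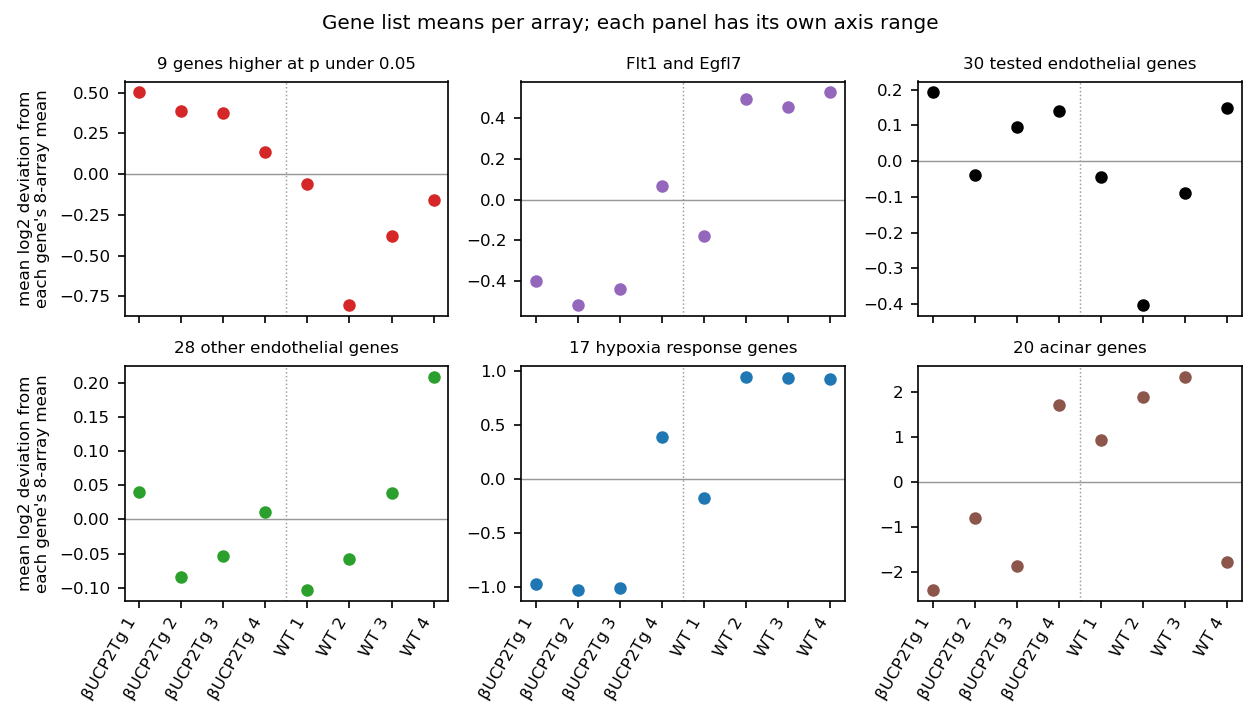
Mean log2 deviation from each gene's 8-array mean (vertical axis, its own range in each panel) on each array, for 6 gene lists. The 9 genes chosen for higher values at an unadjusted p under 0.05 and the pair chosen for lower values are shown beside all 30 tested endothelial genes, 28 other endothelial genes, 17 hypoxia response genes and 20 acinar genes. βUCP2Tg replicate 4 and WT replicate 1 lie between the other arrays in the hypoxia list, at 0.38 and -0.18, and in the mean of Flt1 and Egfl7, at 0.07 and -0.18.

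The ligands of the endothelial receptors were measured in the same samples. Vegfa, the main ligand of Kdr and Flt1, measured 4.55, 4.51, 4.50 and 4.69 in βUCP2Tg islets and 4.83, 4.78, 4.92 and 4.85 in WT islets. The groups did not overlap, and βUCP2Tg replicate 4 again lay nearest to the WT arrays. The log2 fold change of Vegfa was -0.28 (SE 0.09, limma adjusted p = 0.112).

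Pgf, a ligand of Flt1 alone, gave -0.39 (limma adjusted p = 0.143), and Vegfb, another Flt1 ligand, gave 0.03 (0.892). Tgfb1, a ligand of the TGF-β family, had the smallest adjusted p of the ligands, with a log2 fold change of 0.49 (limma adjusted p = 0.0941). Angpt2, which opposes Angpt1 at Tek, gave -0.25 (0.223). Angpt1, well above background on only 2 βUCP2Tg and 2 WT arrays, gave 0.64 with an SE of 0.72. Vegfc, a lymphatic growth factor, gave -0.15 (0.603), and Slit2, a ligand of roundabout receptors, gave 0.15 (0.811). Slit3, of the same family, gave -0.52 (0.265), the chemokine Cxcl12 gave -0.47 (0.524) and the vasoconstrictor Edn1 gave -0.61 (0.216). Cxcl12 was -0.79 without βUCP2Tg replicate 4, -0.79 without WT replicate 1, -0.31 without βUCP2Tg replicate 2 and -0.19 without WT replicate 4, and Slit3 was -0.32 without βUCP2Tg replicate 2. Fgf2, Gdf2 and Bmp10 were above background on too few arrays to be tested. Of 13 tested ligands 0 were called, and their median log2 fold change was -0.15. At an unadjusted limma p under 0.05, 3 were higher and 2 lower, against 9.99% and 15.2% of all probes. The 3 were Tgfb1, Vegfd at 1.01 (limma adjusted p = 0.136) and Pdgfb, which recruits pericytes, at 0.41 (0.176), and the 2 were Vegfa and Pgf.

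A separate list of 28 other endothelial genes, all tested, had a median log2 fold change of -0.07, and 13 of the 28 were above 0. At an unadjusted limma p under 0.05, 3 were higher (Cd34, Cd93 and Adgrl4) and 2 lower (Calcrl and Ramp2), against 9.99% and 15.2% of all probes. Of the 28, 0 were called. Cd34, a sialomucin also carried by blood stem cells, gave 0.44 with groups that did not overlap (limma adjusted p = 0.0871). Ramp2, the adrenomedullin receptor's partner, gave -0.47 (0.121), and Arhgef15 gave 0.07 (0.847). The mean of this list lay between -0.08 and 0.04 in βUCP2Tg islets and between -0.10 and 0.21 in WT islets, so the groups overlapped here too.

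The median of 10 tested genes of pericytes and smooth muscle, the cells that wrap the capillaries, was 0.14. At an unadjusted limma p under 0.05, 3 were higher (Anpep, Pdgfrb and Cspg4) and 0 lower, against 9.99% and 15.2% of all probes. Anpep gave 0.58 (limma adjusted p = 0.117), Acta2, the smooth muscle actin, gave -0.43 (0.246), and Rgs5 gave -0.12 (0.674). When single arrays were left out, Rgs5 ran from -0.26 (without WT replicate 1) to -0.04 (without WT replicate 3). Medians of other lists were 0.07 for 7 genes of venous and activated endothelium, -0.29 for 5 lymphatic genes, 0.32 for 6 fibroblast genes, -0.22 for 12 macrophage and leukocyte genes and -0.02 for 7 platelet and red cell genes. They were -0.08 for 6 duct genes and -0.04 for 13 endocrine genes, and 0 genes of these lists were called in either direction.

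Digestive enzyme transcripts of acinar cells differed widely between samples. The mean of 20 acinar genes lay between -2.39 and 1.71 in βUCP2Tg islets and between -1.79 and 2.33 in WT islets, with a median log2 fold change of -1.72 and 0 called. It was high in βUCP2Tg replicate 4 and WT replicates 1 to 3 and low in the other 4 samples. Amy2a5, a pancreatic amylase, gave -2.02 (limma adjusted p = 0.33), and the elastases Cela2a and Cela1 gave -2.14 (0.315) and -1.63 (0.313). Ptf1a, the acinar transcription factor, did not reach that level above background on any of the 8 arrays. The part of acinar tissue in the endothelial values was not tested.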

How the data were processed

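Islet RNA of 4 βUCP2Tg and 4 WT samples was hybridised to one-colour Agilent mouse arrays, all on 1 slide. The deposited scanner files give each spot's intensity after the authors' processing with Agilent Feature Extraction (9.1 per the submitters' processing notes, 10.7.3.1 per the file headers), with no scaling between arrays. The authors also deposited log2 values from GeneSpring, and these equalled the log2 scanner signals up to 1 constant for each array. The same deposited table holds the authors' fold change, a ratio between the groups, and their p-value before and after adjustment, which were not used.

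Control spots and outlier flags were left out, and the log2 processed signals were set relative to their array's 75th percentile and averaged over the spots of a probe. A probe counted as well above background when the scanner flagged at least 50% of its kept spots so. Probes above background on at least 4 of 8 arrays were tested with limma 3.58.1 (R 4.3.3 and the data.table package, version 1.17.8), and p-values were adjusted by Benjamini-Hochberg over all 35363. Figures used matplotlib 3.10.9 and Python 3.11.15. The fit was tested on simulated data. The number of arrays limits the precision. The 75th percentile before scaling was 9.00 to 9.16 in βUCP2Tg and 8.78 to 8.89 in WT arrays, on the log2 scale. The members and lists were chosen with earlier results of these data known. All 31 genes were named. From other lists the rule named the 3 genes of highest mean signal, any called gene and any measured ligand (others are named for their p, seen first), and values are given for the other endothelial, Notch, pericyte, acinar and hypoxia lists and for the ligands. Alternatives covered the filter, the scaling, the background correction, the test, the choice of probe, a block for the replicate number and the leaving out of each array.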

Additional observations from a re-analysis of the deposited data

Results flagged for a closer look

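In 4 arrays of a group, a sample was singled out when its gap to the nearest other sample took up more of the group's range than Dixon's 95% limit, which chance passes in about 1 of 20 groups. Over 164 groups of 4 (the 31 endothelial genes, Ucp2, other tested genes that are named, and list means), 12 passed. Among the endothelial genes, Icam2 stood high in βUCP2Tg replicate 4, at 2.55 against 2.11 to 2.16 in the others (0.892 of the range). Ushbp1 was high in the same array, at -0.05 against -0.88 to -0.74 (0.832). Flt1 was low in WT replicate 1, at 3.05 against 3.79 to 3.92 (0.849), and Nos3 was high in WT replicate 4, at 1.23 against 0.99 to 1.03 (0.834).

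Of the other genes, Cd93 was low in βUCP2Tg replicate 4, at 1.34 against 2.17 to 2.29 (0.874). Pdgfb was low in WT replicate 1 (0.848). Bnip3 was high in βUCP2Tg replicate 4 (0.973) and low in WT replicate 1 (0.856), and Ndrg1 was low in WT replicate 3 (0.964). The mean of the hypoxia genes was high in βUCP2Tg replicate 4 (0.964) and low in WT replicate 1 (0.980), and the mean of the duct genes was low in WT replicate 1 (0.985). Of the 12, 5 were in βUCP2Tg replicate 4 and 5 in WT replicate 1. Bnip3 is part of the hypoxia mean, so its results and those of that mean are not independent. Their cause was not tested.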

How the results depend on the processing

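No endothelial gene was called, 0 higher and 0 lower, under every alternative filter, under the other scalings, the deposited values, the floor, the outlier spots kept, the intensity trend, no fold limit, the mean of a gene's probes, the adjusted t-test and the replicate block. With the replicate number as a block, calls over all probes fell from 73 to 13 higher and from 72 to 1 lower. The labels do not say whether the numbers pair the samples. Same-numbered deviations correlated at 0.44, -0.05, -0.01 and -0.24. Differently numbered ones ran from -0.47 to 0.46, a range that holds these values, so they cannot decide it. The intensity trend gave 150 higher and 229 lower probes and the floor 119 and 129. The filters gave 18 and 3 (none), 28 and 10 (at least 1 array) and 99 and 138 (all 8 arrays). The adjusted t-test gave 17 and 9, the mean of a gene's probes 48 and 35, and the 75th percentile over probes above background on all arrays 59 and 23. Normexp correction called 1 gene higher, Sox18 (0.70), with 231 higher and 585 lower probes in all. The unadjusted t-test with the fold limit called 5 higher and 1 lower, with 1003 and 1829 probes (2.84% and 5.17%). Leaving out single arrays gave 0 to 4 genes called higher, 0 to 2 lower, and medians of 0.013 to 0.33. Of the genes, 5 to 8 then lay higher and 1 to 5 lower without overlap, against 5.68% to 14.7% and 7.87% to 16.5% of all probes. Without βUCP2Tg replicate 4 and WT replicate 1 together (chosen after seeing the data), 5 were called higher, 2 lower, and 9 and 6 did not overlap (21.5% and 23.6% of all probes). Under normexp, and with the median over probes above background on all arrays, 0 genes had every βUCP2Tg array below every WT array, against 17.1% and 6.19% of all probes. The causes were not tested.

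Some genes changed sign, most of them near 0. Angpt1 and Clec14a, at 0.64 and 0.32 in the fit of all arrays, were not, but neither was well above background on all 8 arrays. Under quantile scaling Pecam1 was 0.015 and Sox17 0.023, and Sox17 was 0.055 as the mean of its probes. Under normexp, Ptprb was -0.022, Clec14a -0.13, Dll4 -0.013, Tal1 -0.15, Angpt1 -0.10 and Slit2 -0.13. Without both arrays, Icam2 was -0.12, Dll4 -0.091, Tal1 -0.12, Arhgef15 -0.087, Vegfc 0.033 and Slit2 -0.047. Leaving out single arrays gave Icam2 -0.040 to 0.17, Dll4 -0.024 to 0.16, Tal1 -0.11 to 0.20, Pecam1 -0.13 to 0.061, Erg -0.16 to 0.022, Ushbp1 -0.25 to 0.021, Ptprb -0.044 to 0.14, Sox17 -0.16 to 0.081, Apln -0.0050 to 0.34 and She -0.11 to 0.34. It gave Ndrg1 -0.061 to 0.088, Arhgef15 -0.084 to 0.23, Vegfc -0.24 to 0.0048, Vegfb -0.023 to 0.10, Angpt1 -0.025 to 0.93 and Slit2 -0.11 to 0.43.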
